A study of Mus musculus with 6 samples.

Results

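ATP-binding cassette (ABC) genes were examined in 4T1 mouse mammary carcinoma cells with acquired resistance to axitinib. All protein-coding mouse genes with a symbol made of Abc, a subfamily letter from a to g and a number were taken, which gave 50 genes of the 53465 in the count table. The study compared 3 RNA sequencing libraries of parental (P) 4T1 cells with 3 libraries of the axitinib-resistant (AxR) variant. 4T1 is an established, metastatic Balb/c mammary tumor line, and AxR cells were grown out of metastases (lung or lymph node) of mice that received 100 mg/kg/day of axitinib, which blocks VEGF receptor kinases. The variant was then kept in 0.5 μM axitinib for over 2 months. Both lines were cultured in RPMI with serum. The treatment labels name axitinib for AxR cells alone, whereas the growth label names the drug for all 6 samples. AxR is 1 derived line, so selection, growth in the animal and the presence of drug cannot be told apart.

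ABC proteins hold nucleotide-binding domains that bind and split ATP, and most of them use that energy to move substrates across a membrane. P-glycoprotein, breast cancer resistance protein and the multidrug resistance-associated proteins (MRPs) pump drugs out of tumor cells, and axitinib itself has been described as a substrate of P-glycoprotein and breast cancer resistance protein. Other members carry cholesterol, phospholipids or fatty acids, serve the peroxisome or the mitochondrion, or have no membrane domain and act on ribosomes. The 50 genes were therefore sorted by role into 10 drug efflux genes, 12 genes for cholesterol, phospholipid and bile salt transport, 10 other genes of subfamily A, 4 genes for peroxisomal fatty acids and cobalamin, 5 mitochondrial and lysosomal transporters, 5 channel regulators and other genes, and 4 soluble genes of subfamilies E and F.

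Totals per library lay between 15495260 and 17294525 estimated counts, and 3 counts, taken as the floor, corresponded to 0.171 to 0.196 CPM, the unit of edgeR for counts scaled to the normalized library size. Within a line, replicates varied beyond counting noise (chi-square over degrees of freedom, 5.06 to 19.4), but no source says whether they were separate cultures, so p-values measure only the spread between these libraries. The 8 epithelial markers were abundant, with summed levels of 2043 to 2269 CPM in P and 3284 to 3428 CPM in AxR libraries, although Krt19 and Cldn7 fell. Markers of leukocytes, endothelium, fibroblasts and lung epithelium each summed to at most 24.1 CPM in any library. No count was found for 4 of 10 leukocyte, 2 of 6 endothelial, 3 of 8 fibroblast and 2 of 8 lung epithelial markers. With these included, 8, 6, 7 and 7 markers had at most 14 counts in any library, among them Ptprc, Pecam1, Col1a1 and Ager. Cdh5 had 7, 4 and 5 counts in P and 0, 0 and 1 in AxR libraries. Pdgfrb had none in P and 5, 6 and 4 in AxR libraries. The leukocyte sum lay between 6.14 and 8.28 CPM in P and between 16.5 and 17.5 CPM in AxR libraries, mostly from Cd68 and Cd14. The lung epithelial sum lay between 1.21 and 1.64 CPM in P and between 4.49 and 4.59 CPM in AxR libraries, where Foxj1 rose, and the fibroblast sum lay between 22.5 and 24.1 CPM in P and between 10.2 and 11.6 CPM in AxR libraries, where Pdgfra fell. Their part in the ABC results was not tested. In bulk RNA, fewer cells with a transcript and less of it per cell cannot be told apart.

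Of the 50 ABC genes, 24 passed the low-count filter and were tested. With edgeR's quasi-likelihood test and a threshold of 0.05 on the adjusted p, 7 were higher and 9 lower in AxR cells and 8 were not called. That is 66.7% of the tested members, near the 63.5% called among all 13550 genes tested. Over all genes tested, 32.8% were called higher and 30.8% lower. The median log2 fold change of the 24 tested ABC genes was -0.025, against 0.0058 over all genes tested, and the median absolute change was 0.35 in both. The libraries of the lines did not overlap for 18 of the 24 genes (75%), where 68.3% of all tested genes were so separated, and an exact permutation test (two-sided) gave each such member p = 0.1, which is the lower limit for 3 against 3. These shares were close to those of all genes, and the values given here are those of single members. Changes of at least 0.5 on the log2 scale were called in 6 higher members (18.3% of all genes) and 2 lower members (14.4% of all genes). At a log2 change of at least 1, the call was met by Abca4 among higher genes (7.99% of all genes) and by Abcg2 and Abcb1b among lower genes (4.72% of all genes).

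**Figure D1:**
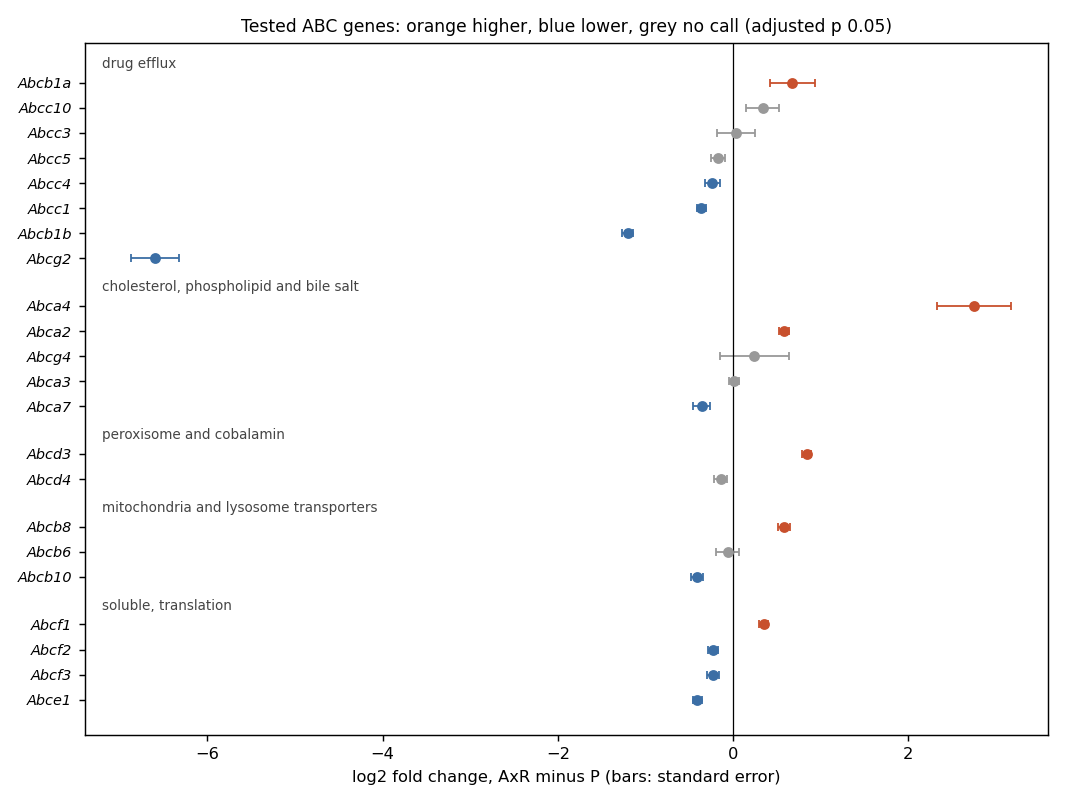
Log2 fold change (AxR minus P, horizontal axis) of 22 tested ABC genes, sorted by role, with bars for the standard error. Red-orange points mark genes called higher, blue points genes called lower and grey points genes not called. Abcg2 lies far left at -6.60, and Abca4 far right at 2.75.

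Among the drug efflux genes, AxR cells held less transcript of the main pumps than P cells. Abcg2 was nearly lost, Abcb1b was 2.30-fold lower, and Abcc1 and Abcc4 fell by smaller steps. Abcb1a, at a low level, was the 1 efflux gene called higher. The calls of Abcc4 and Abcb1a were each lost in 4 of 13 alternative fits. Abcc1 was at -0.36 on the log2 scale, where its chromosome had a median of -0.32. Of the 10 efflux genes 8 were tested, with 1 higher, 4 lower and 3 not called, and a median log2 fold change of -0.21. The 62.5% called was close to the 63.5% over all genes tested.

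Abcg2 encodes breast cancer resistance protein, an efflux pump for many drugs and for urate, and marks stem-like cells in several tissues (ENSMUSG00000029802.13, chromosome 6 of GRCm38 from 58584523 to 58695676, plus strand). Its rounded counts were 310, 411 and 289 in P replicates 1 to 3 and 7, 1 and 2 in AxR replicates 1 to 3. In CPM these were 18.8, 23.7 and 18.8 in P libraries and 0.445, 0.0638 and 0.114 in AxR libraries. Every P library was far above every AxR library, and 2 of the 3 AxR libraries lay at or under the floor of 3 counts. The log2 fold change was -6.60 (standard error, SE, 0.269, adjusted p = 6.64e-11, edgeR quasi-likelihood), the lowest of the family. Summed over libraries, 1010 counts in P and 10 in AxR cells gave a 101-fold difference, with a 95% exact binomial interval of 54.6 to 211 that covers counting error only. AxR replicate 1 held 7 of the 10 AxR counts, and without that library the log2 fold change was -7.71. The 50 nearest tested genes had a median log2 fold change of -0.031 with 12 called lower and 19 higher, and chromosome 6 had a median of 0.0081. Abcg2 passed the count filter through its P libraries alone.

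RefSeq lists 3 start sites for Abcg2 on GRCm38.p6, and gene-level counts do not say which was in use. The 250 bases before each are shown since this is the gene with the largest change. Capitals mark matches on either strand to the GC box GGGCGG, the CCAAT box, the xenobiotic response element core GCGTG, the antioxidant response element core TGACNNNGC, the E box CACGTG or the TATA box TATAAA. The first window is chr6:58584283-58584532, the second chr6:58596422-58596671 and the last chr6:58640296-58640545, all on the plus strand.
Abcg2 first start: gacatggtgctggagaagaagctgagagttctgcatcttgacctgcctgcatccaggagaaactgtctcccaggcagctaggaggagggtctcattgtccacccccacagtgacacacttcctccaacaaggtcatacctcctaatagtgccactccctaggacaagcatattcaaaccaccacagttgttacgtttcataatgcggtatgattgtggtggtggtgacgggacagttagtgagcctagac
Abcg2 second start: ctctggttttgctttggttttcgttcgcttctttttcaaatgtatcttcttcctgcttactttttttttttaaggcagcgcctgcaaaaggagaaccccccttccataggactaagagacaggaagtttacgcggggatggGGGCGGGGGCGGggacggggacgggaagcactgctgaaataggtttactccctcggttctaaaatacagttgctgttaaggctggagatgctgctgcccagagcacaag
Abcg2 last start: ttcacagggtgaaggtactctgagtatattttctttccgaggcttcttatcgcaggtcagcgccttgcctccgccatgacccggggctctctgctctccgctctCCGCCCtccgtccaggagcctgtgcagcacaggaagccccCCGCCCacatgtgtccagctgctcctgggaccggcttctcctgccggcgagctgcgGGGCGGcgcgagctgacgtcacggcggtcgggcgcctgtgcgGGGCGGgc

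The windows differ in composition. The first holds 3 CpG dinucleotides and none of the motifs, the second 10 CpG and 2 GC boxes, and the last 23 CpG and 4 GC boxes, with 67.6% G and C. A GC box occurs in 32.7% of the 32851 RefSeq windows of this length, so its presence is common. The other motifs occur in 33.8% (CCAAT), 28.2% (GCGTG), 10.2% (TGACNNNGC), 6.02% (CACGTG) and 12.4% (TATAAA) of windows, and none of them was found in the Abcg2 windows. No methylation or binding was measured.

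P-glycoprotein, which expels many hydrophobic drugs, is encoded in the mouse by Abcb1a and Abcb1b, which lie in tandem 49.6 kb apart on chromosome 5, beside the phosphatidylcholine exporter Abcb4. Abcb1b (ENSMUSG00000028970.9, chromosome 5 from 8798147 to 8866315, plus strand) was the main copy in 4T1 cells. It had 87.4, 94.9 and 85.9 CPM in P libraries and 41.0, 38.7 and 37.1 CPM in AxR libraries. All AxR libraries were below all P libraries by a wide gap, and the log2 fold change was -1.20 (SE 0.062, adjusted p = 3.50e-10, edgeR quasi-likelihood). The 50 nearest tested genes also leaned low, with a median of -0.36 and 28 of them called lower, and Abcb1b differed from that median by -0.84 on the log2 scale. Its promoter window, chr5:8797897-8798146 on the plus strand, is shown for comparison with Abcg2. It holds 2 CCAAT boxes, 1 of them as its reverse complement, and 1 GC box.
Abcb1b: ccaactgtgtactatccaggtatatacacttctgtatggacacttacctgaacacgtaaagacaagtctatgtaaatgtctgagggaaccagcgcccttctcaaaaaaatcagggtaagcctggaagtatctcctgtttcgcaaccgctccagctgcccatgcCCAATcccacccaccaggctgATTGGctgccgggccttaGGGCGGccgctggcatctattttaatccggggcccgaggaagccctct

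Abcb1a (ENSMUSG00000040584.8, chromosome 5 from 8660077 to 8748575, plus strand) went the other way. Its counts were 22, 30 and 18 in P and 30, 32 and 50 in AxR libraries, or 1.34, 1.73 and 1.17 CPM against 1.91, 2.04 and 2.84 CPM. The groups did not overlap after scaling, although the highest P and the lowest AxR library were close. The log2 fold change of 0.68 (SE 0.259, adjusted p = 0.0328, edgeR quasi-likelihood) passed the threshold narrowly. The call was lost without P replicate 1 (adjusted p = 0.0818), without P replicate 3 (0.108), without AxR replicate 3 (log2 fold change 0.47, adjusted p = 0.159) and with DESeq2 (0.0972). In 16.3% of its transcript positions Abcb1a shares a 50-base stretch with Abcb1b, and 11.1% of those of Abcb1b are shared, so RSEM had to divide some reads between the copies. When the counts of both were summed, the log2 fold change was -1.14, with 1460, 1675 and 1336 counts in P and 675, 639 and 703 in AxR libraries. Per kilobase of exon, Abcb1a reached 0.413 CPM in AxR cells against 4.87 CPM for Abcb1b. The RefSeq start of Abcb1a lies 93.0 kb before the start of its gene in the GENCODE annotation, and its window is not shown. Abcb4 itself had at most 1 count in each library.

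The MRPs of subfamily C export glutathione and glucuronide conjugates, cyclic nucleotides and drugs. Abcc1, encoding MRP1, had the highest per-length level among them and fell from 148, 161 and 152 CPM in P to 119, 120 and 120 CPM in AxR libraries, a log2 fold change of -0.36 (SE 0.051, adjusted p = 1.66e-05, edgeR quasi-likelihood). Abcc1 lies on chromosome 16 (from 14361558 to 14475737), whose tested genes had a median of -0.32, and it differed from that median by -0.040. Its 50 nearest tested genes had a median of -0.22, from which Abcc1 differed by -0.14. Abcc4, encoding MRP4, an exporter of cyclic nucleotides and prostaglandins, had 43.1, 43.3 and 38.5 CPM in P and 32.7, 33.1 and 40.1 CPM in AxR libraries. AxR replicate 3 lay above P replicate 3. Its log2 fold change of -0.24 (adjusted p = 0.0235, edgeR quasi-likelihood) passed the threshold, but not without P replicate 1 (adjusted p = 0.0922), P replicate 2 (0.0808), AxR replicate 1 (0.0997) or AxR replicate 2 (0.118).

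Abcc5, encoding MRP5, a cyclic nucleotide exporter, had 26.8, 29.3 and 24.7 CPM in P and 24.7, 24.04 and 23.0 CPM in AxR libraries, which nearly touched. It was not called (log2 fold change -0.17, adjusted p = 0.0662, edgeR quasi-likelihood), but passed with TMM normalization (adjusted p = 0.0498) and without P replicate 3 (0.0378). Abcc10, encoding MRP7, had 2.37, 3.58 and 3.33 CPM in P and 3.62, 3.76 and 4.32 CPM in AxR libraries. These did not overlap, but the log2 fold change of 0.34 was not called (adjusted p = 0.131 by the same edgeR test). Abcc3, encoding MRP3, had 2.19, 2.37 and 3.19 CPM in P and 2.16, 3.06 and 2.67 CPM in AxR libraries, and the lines overlapped fully (log2 fold change 0.03, SE 0.217). Abcc2 and Abcc12 had at most 1 and 2 counts in any library.

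**Figure D2:**
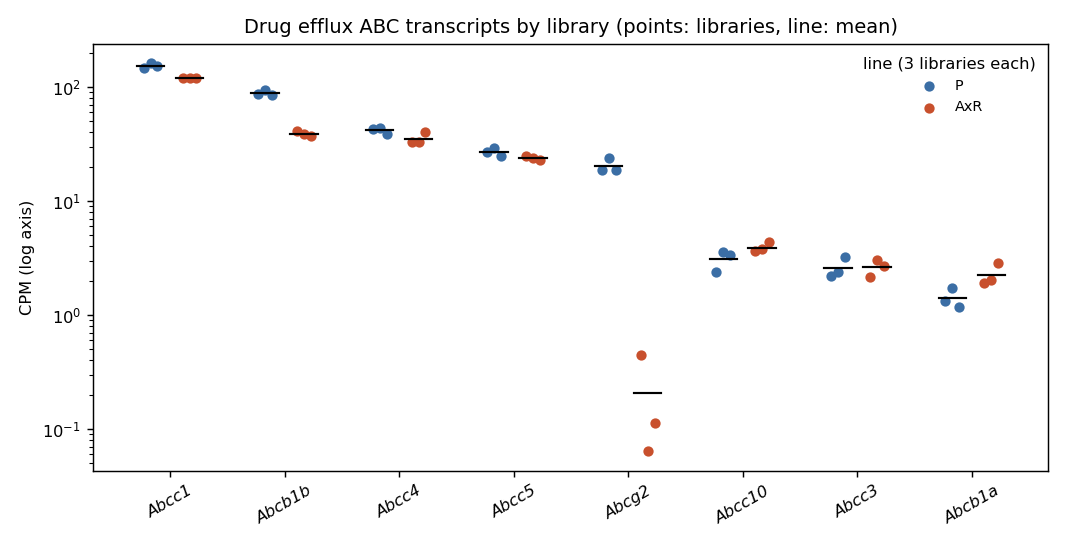
CPM on a log axis for the 8 tested drug efflux genes in each of 3 P (blue) and 3 AxR (red-orange) libraries, with black lines at the means. Abcg2 drops from 20.5 to 0.207 CPM, Abcb1b from 89.4 to 38.9 CPM, and the points of Abcc3 overlap between lines.

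Scaled by exon length, the 10 efflux genes together made 33.3, 36.2 and 32.8 CPM per kilobase in P libraries and 21.8, 21.7 and 22.6 in AxR libraries. Abcb1b held 32.8% ± 0.0460 of this sum in P and 22.1% ± 1.51 in AxR cells (SD, n = 3 each), and Abcg2 held 7.34% ± 0.597 in P and 0.116% ± 0.117 in AxR cells (SD, n = 3 each). Abcc1 and Abcc4 held the largest shares in AxR cells, 36.0% ± 0.882 and 25.03% ± 2.35 (SD, n = 3 each), while their own CPM fell. The sum counts transcripts per exon length and is not a measure of pump activity.

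**Figure D3:**
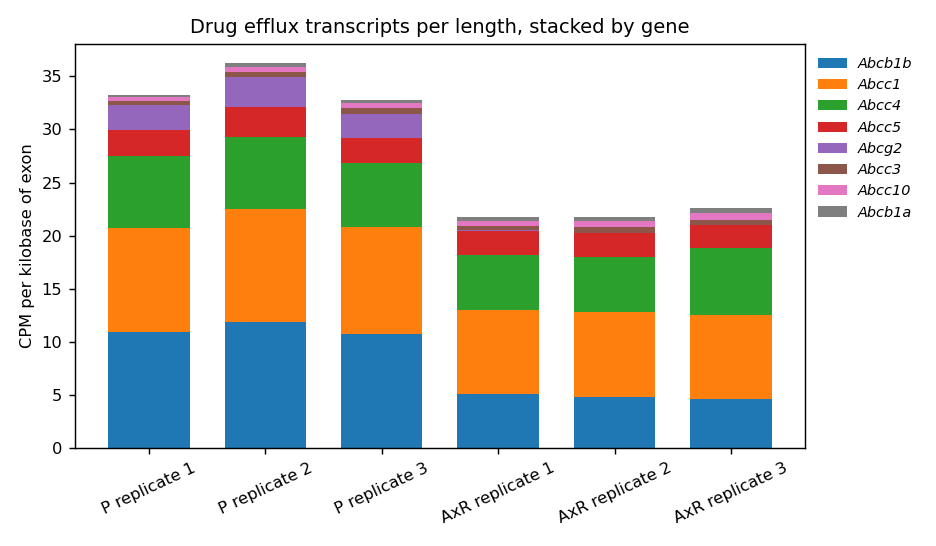
CPM per kilobase of exon, stacked over the 8 tested drug efflux genes, in each of the 6 libraries. The stacks reach 32.8 to 36.2 in P and 21.7 to 22.6 in AxR libraries. The mean segment of Abcb1b (bottom, blue) is 11.2 in P and 4.87 in AxR cells. That of Abcg2 (purple) is 2.51 in P and 0.0254 in AxR cells, and that of Abcc1 is 10.2 and 7.93. Abcc4 and Abcc5 are also lower in AxR cells, and Abcc3, Abcc10 and Abcb1a slightly higher.

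Among the genes for peroxisomal fatty acids and cobalamin, Abcd3 rose in AxR cells. Abcd3, encoding PMP70, which brings branched and long-chain acyl-CoA into peroxisomes (ENSMUSG00000028127.10, chromosome 3 from 121758774 to 121815302, minus strand), had 76.4, 73.2 and 73.0 CPM in P and 134, 132 and 133 CPM in AxR libraries. The replicates were tight and far apart between lines, with a log2 fold change of 0.84 (SE 0.050, adjusted p = 1.57e-09, edgeR quasi-likelihood). Its 50 nearest tested genes had a median of 0.62, and 32 of them were called higher. Abcd4, the lysosomal cobalamin exporter, was not called at -0.14 (adjusted p = 0.117), although its libraries did not overlap between lines, and Abcd2 had no count.

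The cholesterol and phospholipid group was mostly silent in these cells. Only 5 of its 12 genes could be tested, with 2 higher, 1 lower and 2 not called. The 60% called was close to the 63.5% over all genes tested. Abca1, which loads cholesterol onto apolipoprotein A-I and is a standard target of the liver X receptors, had 1 count in a single P library and none elsewhere. Abcg1, which passes cholesterol to HDL, had 3, 9 and 0 counts in P and 0, 1 and 0 in AxR libraries, under the count filter. The highest level per kilobase in the group was that of Abca3, the phospholipid transporter of lung surfactant lamellar bodies, with 88.5, 99.1 and 95.7 CPM in P and 90.6, 98.0 and 97.0 CPM in AxR libraries. These ranges overlapped, and the difference of 0.01 on the log2 scale had a standard error of 0.058. The surfactant genes Sftpc, Sftpb, Sftpa1 and Sftpd had at most 2 counts in any library. A tested gene on the opposite strand shares 9.75% of the exon bases of Abca3, and whether counting used strand is not given in the sources used here.

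Abca2, a lipid transporter of endosomes and lysosomes best known in brain (ENSMUSG00000026944.18, chromosome 2 from 25428703 to 25448540, plus strand), rose from 49.7, 49.6 and 49.9 CPM in P to 74.6, 75.0 and 74.0 CPM in AxR libraries. The SD was 0.141 CPM in P and 0.520 CPM in AxR cells (n = 3 each), and the log2 fold change was 0.58 (SE 0.053, adjusted p = 1.81e-07, edgeR quasi-likelihood), in a region with a median of -0.012. Abca7, a phospholipid exporter related to Abca1, fell by 0.36 on the log2 scale (adjusted p = 0.00562, edgeR quasi-likelihood), from between 23.99 and 30.3 CPM to between 18.4 and 23.0 CPM, on a chromosome with a median of 0.25. Abca4, the retinoid-phospholipid flippase of photoreceptors, had 2, 6 and 3 counts in P and 17, 25 and 34 counts in AxR libraries, or 0.122, 0.346 and 0.196 CPM against 1.08, 1.59 and 1.93 CPM. All AxR libraries were above all P libraries, and the log2 fold change of 2.75 (SE 0.423, adjusted p = 4.16e-05, edgeR quasi-likelihood) was the highest of the family, at a level that stayed low. The ratio of the summed counts, 76 to 11, was 6.92 with a 95% exact binomial interval of 3.66 to 14.5 for counting error only. Abca4 and Abcd3 are neighbors, 229 kb apart on chromosome 3, and the 50 genes around Abca4 had a median of 0.56. Abca4 passed the count filter through its AxR libraries. Abcg4, a sterol transporter of neurons, had at most 14 counts in any library and was not called (log2 fold change 0.24, SE 0.393).

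**Figure D4:**
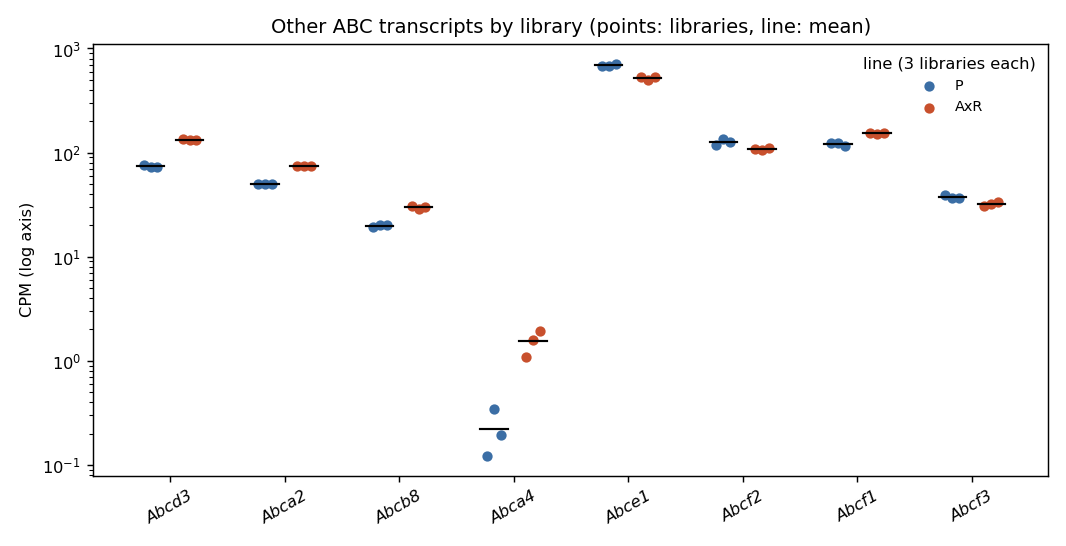
CPM on a log axis for Abcd3, Abca2, Abcb8 and Abca4, which changed by at least 0.5 on the log2 scale, and for the 4 soluble members, in 3 P (blue) and 3 AxR (red-orange) libraries, with black lines at the means. Abcd3, Abca2, Abcb8, Abca4 and Abcf1 are higher in every AxR library, and Abce1, Abcf2 and Abcf3 are lower in every AxR library.

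In mitochondria, Abcb8 and Abcb10 moved in opposite directions. Abcb8, part of the ATP-sensitive potassium channel of the inner membrane and of iron export, had 19.1, 20.3 and 20.1 CPM in P and 30.4, 29.0 and 29.9 CPM in AxR libraries. The lines were well separated, with a log2 fold change of 0.58 (SE 0.071, adjusted p = 3.52e-06, edgeR quasi-likelihood), against a median of -0.20 over its 50 nearest tested genes. Abcb10, which supports heme synthesis, fell by 0.41 on the log2 scale (adjusted p = 0.000151, edgeR quasi-likelihood), from between 34.0 and 37.4 CPM to between 25.3 and 27.9 CPM. The 50 tested genes nearest to Abcb10 had a median of -0.15. Abcb6, a porphyrin transporter, was not called at -0.06 (SE 0.133), and 55.2% of its exon bases are shared with another gene on the same strand that had at most 8 counts. Abcb9, the lysosomal peptide transporter, had at most 6 counts in any library.

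The soluble members are ATPases of subfamilies E and F, and Abce1, Abcf2 and Abcf1 had the highest levels of the family per kilobase in both lines. Abce1, which splits ribosomes for recycling, led with 684, 677 and 715 CPM in P and 536, 494 and 535 CPM in AxR libraries, or 115 and 86.9 CPM per kilobase on average. Its AxR libraries were all lower, with a log2 fold change of -0.41 (SE 0.049, adjusted p = 3.19e-06, edgeR quasi-likelihood), where chromosome 8 had a median of -0.18. Abcf1, which binds initiation factor eIF2, rose from between 117 and 124 CPM to between 152 and 156 CPM, a log2 fold change of 0.35 (adjusted p = 1.59e-05, edgeR quasi-likelihood). The 50 tested genes nearest to Abcf1 had a median of 0.18. Abcf2 and Abcf3 both fell by 0.23 on the log2 scale (adjusted p = 0.00244 and 0.00738 by the same edgeR test), and their libraries did not overlap between lines. The 50 tested genes nearest to Abcf2 had a median of -0.11. All 4 were called, 1 higher and 3 lower, where 63.5% of all genes tested were called, and none reached 0.5. Abcf3 and Abcc5 lie within 122 kb of each other on chromosome 16, where the 50 genes around Abcf3 had a median of -0.30.

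**Figure D5:**
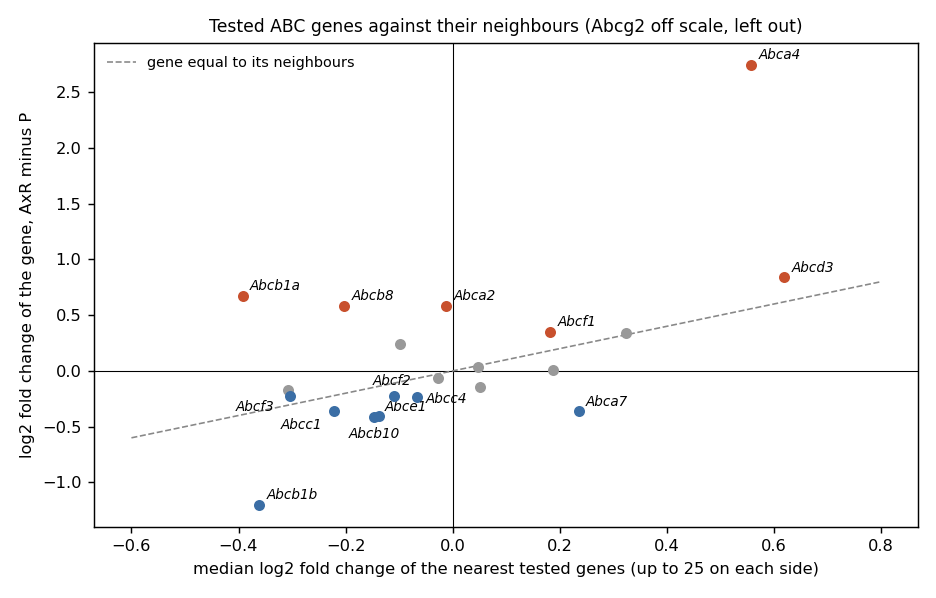
Log2 fold change (AxR minus P) of 21 tested ABC genes on the vertical axis against the median log2 fold change of the nearest tested genes (up to 25 on each side) on the horizontal axis, with red-orange for higher, blue for lower and grey for no call. Abcg2, at -6.60 against -0.031, is off the scale. Abcf3 lies near the dashed line of equality, at -0.23 against -0.30, and Abcd3 lies above it, at 0.84 against 0.62. Abca4, Abcb1b, Abcb1a, Abcb8, Abca2 and Abca7 lie farther from it.

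The other 26 ABC genes were not tested. Of these, 10 had no count in any library, for which the floor allows up to 0.196 CPM in any library, 13 had 1 or 2 counts in their highest library, and Abcg1, Abcb9 and Abcb11 had up to 9, 6 and 6. Abcb11, the bile salt export pump of liver, had 2, 1 and 0 counts in P and 3, 3 and 6 in AxR libraries. All 10 remaining genes of subfamily A, among them Abca5 and the Abca6, Abca8a, Abca8b and Abca9 cluster on chromosome 11, were at or under 1 count in every library. The channel regulators Abcc8 and Abcc9, which form the sulfonylurea receptors, and Abcc6, Abcb5 and Abcg3 were at or under 2 counts. With no low-count filter, Abcg1 was called lower (log2 fold change -3.15, adjusted p = 0.0255, edgeR quasi-likelihood), although P replicate 3 had no count and P replicate 2 held 9 of its 12 P counts, and none of the other genes with a count was called.

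Some ABC proteins carry other symbols, among them both chains of the peptide transporter of antigen presentation and the chloride channel Cftr. Tap1 had 9.60, 9.53 and 8.35 CPM in P and 37.2, 40.9 and 41.3 CPM in AxR libraries, and Tap2 had 23.6, 22.6 and 22.1 CPM against 105, 117 and 122 CPM. Their log2 fold changes were 2.12 and 2.33 (adjusted p = 2.12e-11 and 7.87e-13 by edgeR's quasi-likelihood test), and Cftr had at most 1 count. Of 17 regulators of sterol and xenobiotic genes, 15 were tested, with 7 higher, 1 lower and 7 not called, so that 53.3% were called against 63.5% of all genes tested. Apoe, a cholesterol acceptor, had 1.28, 1.62 and 1.43 CPM in P and 2.67, 3.25 and 4.38 CPM in AxR libraries (log2 fold change 1.25, adjusted p = 0.000277, edgeR quasi-likelihood). Srebf2, the cholesterol synthesis factor, had 94.1, 103 and 96.2 CPM in P and 197, 195 and 182 CPM in AxR libraries (log2 fold change 0.96, adjusted p = 1.04e-09, edgeR quasi-likelihood). Neither of these genes overlapped between lines. The 1 lower gene was Nfe2l2, encoding NRF2, at -0.15, named after its value was seen.

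Of 17 genes that work with ABC proteins, all were tested, with 6 higher, 5 lower and 6 not called, so that 64.7% were called against the same 63.5%. Gclm, the modifier subunit of glutathione synthesis, whose product MRPs export in conjugates, rose from 42.5, 47.6 and 44.3 CPM in P to 143, 129 and 128 CPM in AxR libraries (log2 fold change 1.57). Like Abca4 and Abcd3 it lies on chromosome 3, whose tested genes had a median of 0.32. Pelo, the partner of Abce1 in ribosome rescue, fell by 0.88 on the log2 scale, from 7.11, 6.41 and 6.45 to 3.49, 3.70 and 3.64 CPM. Gss, glutathione synthetase, fell by 0.73, from 25.3, 28.0 and 27.8 to 17.1, 14.2 and 17.5 CPM. For all 3 genes the lines did not overlap, and edgeR gave an adjusted p of 2.33e-11 for Gclm, 4.71e-05 for Pelo and 3.67e-06 for Gss. Gclc, the catalytic partner of Gclm, named after its value was seen, was among the 5 lower genes at -0.47.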

How the data were processed

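The authors made stranded mRNA libraries from 3 P and 3 AxR samples and sequenced them. The authors aligned reads to GRCm38 with STAR 2.6.0a and GENCODE M16 and deposited estimated counts per gene from RSEM 1.3.1, before filtering. Between 10.3% and 10.7% of values were not whole, since RSEM divides reads among genes.

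Counts were rounded, filtered with filterByExpr, normalized by upper quartile as in the paper, and tested in R 4.3.3 with edgeR 4.0.16 (quasi-likelihood), using Benjamini-Hochberg adjustment over 13550 genes and a threshold of 0.05. Standard errors were derived from the test statistic. Exact permutation tests used log2 CPM with a pseudocount of 0.5. Symbols, positions and exon lengths came from GENCODE M21 of the same build, in which 53360 identifiers matched. The exon length of a gene was the union of all its annotated exons, and levels per kilobase depend on that choice. Promoter sequences came from RefSeq (GRCm38.p6), which listed 38 of the 50 genes. Alternatives were TMM, library size only, DESeq2 1.42.0, limma-voom (limma 3.58.1), other filters and thresholds, a replicate block, each library left out, and summed paralogs. The test was tried on simulated counts.

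The members and gene lists were chosen with earlier results of these data known. By rule, values per library are given for every tested efflux gene, for members of other groups that were called with a log2 fold change of at least 0.5, and for the member of each group with the highest level per kilobase. Other members are given by counts, ranges or a log2 fold change. Genes outside the family come from lists by function, with values for the 3 called genes with the largest change in a list. Depth was 15495260 to 17294525 estimated counts per library, and intervals and floors cover counting error only. A few genes that this rule would name are not reported here.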

Additional observations from a re-analysis of the deposited data

How the results depend on the processing

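Of the tested values for the family and for all genes, 67 comparisons with an alternative were labelled the same and 6 moved. Here the same means within a set tolerance, not equal. A count had to stay within a set ratio of its main value. The family median had to keep its sign and stay within 0.067 of its main value. Requiring a log2 fold change of at least 1 as well left 1 ABC gene higher and 2 lower, and 1083 higher and 640 lower of all genes, by construction. Under the other alternatives 6 to 7 ABC genes were higher and 8 to 10 lower. The family median was 0.34 without a low-count filter, which added genes with few counts and a call of Abcg1 as lower, and 0.028 without AxR replicate 1, where the cause was not tested. With each library left out it lay between -0.082 and 0.028, on either side of 0. Counts with each library left out were 6 to 7 higher and 8 to 10 lower for ABC genes, and 4124 to 4499 higher and 3782 to 4112 lower for all genes.

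For single ABC genes, 291 comparisons were the same, 8 weaker, 2 stronger and 10 reversed. For these, the same means that the direction and the call, or lack of one, were kept. Apart from Abcb1a, the reversals were of genes near 0. Abcc3 was at -0.068, -0.025 and -0.082 without P replicate 1, P replicate 2 and AxR replicate 2. Abca3 was at -0.0088 with library size only, -0.0010 with DESeq2, and -0.029, -0.0063 and -0.00037 without P replicate 1, AxR replicate 2 and AxR replicate 3. Abcb6 was at 0.0083 without AxR replicate 1, and Abcb1a at -1.14 when summed with Abcb1b. With each library left out, Abcc3 ranged from -0.082 to 0.21, Abca3 from -0.029 to 0.050 and Abcb6 from -0.10 to 0.0083. Abca8a and Abca8b stayed untested when summed. Abcg2, Abca4 and Abcg4 could not be tested at a minimum of 10 counts per library.

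Libraries share a number between lines, but same-numbered libraries did not deviate together (correlations from -0.022 to -0.0061). With the replicate block, 7 ABC genes were higher and 9 lower, and all 16 calls were kept. No library correlated best with its own number.

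Depth limits the low members: 26 ABC genes did not pass the count filter, and Abcg2 in AxR cells and Abca4 in P cells rested on 10 and 11 counts over 3 libraries.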
